A study of Mus musculus with 26 samples.

Results

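The circadian clock genes described here are 10 genes of the mammalian molecular oscillator, measured in inguinal mammary tissue of mice: the activators Arntl (also written Bmal1) and Clock, the repressors Per1, Per2, Per3, Cry1 and Cry2, the nuclear receptors Nr1d1 and Nr1d2, and the output factor Dbp. They were chosen by symbol. The array annotation gave 23 of the 45037 tested probe sets to these symbols alone, with 6 for Per3, 4 for Clock, 3 for Per2, 2 each for Arntl, Nr1d2 and Dbp, and 1 each for Per1, Cry1, Cry2 and Nr1d1. A probe set is a group of short probes read together as 1 value. The array covered 18193 genes in this way, and all 10 were among them.

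RNA of 26 mice was hybridised to 1 Affymetrix mouse genome array per animal, and the values are on the log2 scale. The lactating mice, on day 9, were 5 mice coded AQ and 5 coded AC of generation 14 of an Advanced Intercross Line (AIL) bred from both parental strains, 3 mice of the strain QSi5 and 3 of the strain CBA/CaH. The pregnant mice, on day 12, were 5 QSi5 and 5 CBA/CaH. The labels do not say what the codes AQ and AC stand for, name no treatment and give no age, and the time of day at which glands were collected is not given in the labels. All groups are of 1 tissue, the inguinal mammary gland.

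In the clock, the protein pair ARNTL and CLOCK switches on the Per and Cry genes, Nr1d1, Nr1d2 and Dbp through a DNA element called the E-box, and the PER and CRY proteins then block the pair. NR1D1 and NR1D2 repress Arntl through a second element, to which the activating ROR receptors also bind, so that Arntl peaks at the opposite time of day from Dbp and Nr1d1. Peripheral tissues, the mammary gland included, keep such a rhythm, and levels of the same gene therefore differ with the hour of sampling.

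The promoters of 4 members are shown because their letters match elements through which the oscillator is known to act. They are RefSeq windows on the mouse build GRCm38.p6, from 250 bases before to 50 bases after an annotated start site, 5′ to 3′ on the strand of the gene. Capitals mark the E-box CACGTG, its variant CACGTT, the ROR and REV-ERB half-site AGGTCA and the cyclic AMP response half-site TGACG, each also where it lies on the other strand (a CACGTT there reads as its reverse complement, and so do the others). The Arntl window lies at chr7:113207261-113207560 on the plus strand, the Per1 window at chr11:69098699-69098998 on the plus strand, the Cry1 window at chr10:85185005-85185304 on the minus strand and the Nr1d2 window at chr14:18239057-18239356 on the minus strand.
Arntl: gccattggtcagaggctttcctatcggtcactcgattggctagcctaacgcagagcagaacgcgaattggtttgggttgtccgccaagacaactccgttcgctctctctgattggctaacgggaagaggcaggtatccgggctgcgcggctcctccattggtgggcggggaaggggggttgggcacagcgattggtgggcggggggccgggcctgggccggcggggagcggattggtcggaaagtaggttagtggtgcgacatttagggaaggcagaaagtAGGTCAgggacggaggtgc
Per1: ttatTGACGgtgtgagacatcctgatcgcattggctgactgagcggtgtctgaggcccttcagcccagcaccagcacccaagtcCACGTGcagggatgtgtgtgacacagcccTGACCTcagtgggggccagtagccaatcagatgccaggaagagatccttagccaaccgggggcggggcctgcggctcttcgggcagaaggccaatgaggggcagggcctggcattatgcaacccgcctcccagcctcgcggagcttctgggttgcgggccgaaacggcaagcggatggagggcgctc
Cry1: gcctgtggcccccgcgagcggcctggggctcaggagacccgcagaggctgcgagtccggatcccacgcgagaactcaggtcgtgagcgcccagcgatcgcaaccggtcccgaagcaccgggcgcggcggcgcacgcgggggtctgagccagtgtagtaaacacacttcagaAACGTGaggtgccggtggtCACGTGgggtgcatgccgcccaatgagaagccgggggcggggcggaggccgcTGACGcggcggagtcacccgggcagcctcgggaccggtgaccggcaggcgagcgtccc
Nr1d2: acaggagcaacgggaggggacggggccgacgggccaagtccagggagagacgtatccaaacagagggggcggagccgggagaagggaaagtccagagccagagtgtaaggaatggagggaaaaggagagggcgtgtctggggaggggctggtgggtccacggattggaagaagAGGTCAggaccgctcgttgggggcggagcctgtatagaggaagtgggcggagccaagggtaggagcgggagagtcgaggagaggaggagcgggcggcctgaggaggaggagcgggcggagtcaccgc
Positions are counted from the start site, whose first base is 1. The Arntl window holds AGGTCA at 32, inside the transcript. The Per1 window holds TGACG at -246, CACGTG at -166 and AGGTCA on the other strand at -137, and the Cry1 window holds CACGTT on the other strand at -79, CACGTG at -60 and TGACG at -8. The Nr1d2 window holds AGGTCA at -77. The RefSeq table held 13 windows for 9 of the 10 members, and none for Per2. CACGTG stood in 2 of these 13 windows, against 7.15% of the 32851 windows of the table, and CACGTT in 3 of 13, against 4.68%. AGGTCA stood in 4 of 13, against 16.3%, and TGACG in 4 of 13, against 20.8%. The motifs do not overlap each other in the windows shown. A match describes these letters and says nothing of binding.

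Each gene is represented below by its lead probe set, the one with the highest mean over all 26 arrays. A difference is the first named group minus the second in log2 units, from a linear model fitted over all probe sets with limma, and differences with an adjusted p under 0.05 count as called. Values of different genes come from different probes and are not set against each other.

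As a check of the tissue, the summed level of 6 secretory and luminal epithelial genes lay between 16.5 and 16.6 on the lactation arrays and between 15.3 and 16.2 on the pregnancy arrays (log2). That sum rests on the brightest of them. In each strain 2 of the 6, the milk protein genes Wap and Lalba, were higher at lactation and 2, the keratin genes Krt8 and Krt18, were lower, while Csn2 and Elf5 were not called. Markers of another tissue, or the Gapdh 3′ minus 5′ value, a control for how far labelling ran along a transcript, set 8 arrays apart. Muscle genes marked the pregnancy QSi5 arrays 3 and 5 and the array AIL AC1, brown or white adipocyte genes the pregnancy CBA/CaH arrays 3, 4 and 5 and QSi5 array 4, and B and plasma cell genes the lactation QSi5 array 2. QSi5 array 4 also had a Gapdh value of 6.50. Fewer cells of a type and less RNA per cell cannot be told apart in such bulk samples. Array medians lay between 4.9957 and 5.2974. How precisely a gene is known here depends on how few mice a group holds, 3 to 5.

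The first question was whether the clock genes differed between day 9 of lactation and day 12 of pregnancy in each strain. In both strains Dbp, Clock, Per3 and Cry1 were lower at lactation. Dbp, a transcription factor read as the direct output of the oscillator, showed the difference farthest below 0 in each strain with all arrays kept. Without 8 arrays that stood apart, Per1 lay lower than Dbp in CBA/CaH (-1.62 for Per1, adjusted p = 0.000635, and -1.45 for Dbp, adjusted p = 0.0413), and Dbp lay lowest in QSi5 (-2.18, adjusted p = 0.00984). Per1 was lower in CBA/CaH alone past the threshold, Nr1d2 was lower and Per2 higher in QSi5 alone past the threshold, and the interaction test called no difference between the strains for any of these 3 (adjusted p = 0.996 for each). Arntl, Cry2 and Nr1d1 were not called in either strain.

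By count, CBA/CaH had 5 of the 10 genes called lower and 0 higher, where 29.5% of all genes were lower and 30.4% higher. QSi5 had 5 lower and 1 higher, where 32.7% of all genes were lower and 33% higher. The median of the 10 stage differences was -0.61 for CBA/CaH and -0.92 for QSi5, beside 0.05 and 0.04 over all genes. These are medians of lead probe sets. Over all 23 clock probe sets it was -0.18 for CBA/CaH, with 3 called higher and 6 lower. For QSi5 it was 0.07, with 5 called higher and 6 lower. Over all probe sets the median itself stood 0.17 above 0 for CBA/CaH and 0.19 above 0 for QSi5. The shift was downward instead among probe sets with a mean of at least 5, which hold every clock lead except that of Cry1. There the CBA/CaH median was -0.16, as 8218 probe sets fell past the threshold while 6155 rose. The QSi5 median was -0.20, as 9079 fell while 6699 rose. Stage differences of these leads are to be read against this downward shift. With array medians set equal, the split of all probe sets in CBA/CaH turned to 9095 higher and 11119 lower, against 14546 and 9303 as deposited, and in QSi5 to 9733 and 12778, against 16186 and 10410. After cyclic loess it was 8652 and 8462 for CBA/CaH and 9657 and 9647 for QSi5. Without the 8 arrays that stood apart, which left 2 pregnancy arrays in each strain, CBA/CaH had 6 clock genes lower and 1 higher, where 30.9% of all genes were lower and 29.1% higher. QSi5 then had 6 lower and 2 higher, where 32.3% of all genes were lower and 30.7% higher.

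Markers of other cell types moved with stage. Of 5 fibroblast genes, 4 were lower at lactation in each strain, with a summed level of 11.1 to 11.2 on lactation and 11.8 to 14.1 on pregnancy CBA/CaH arrays, and of 10.8 to 12.0 on lactation and 12.8 to 13.8 on pregnancy QSi5 arrays. Of 4 white adipocyte genes, 3 were lower in CBA/CaH and 1 in QSi5, with summed levels of 10.1 to 11 on lactation and 9.90 to 13.7 on pregnancy CBA/CaH arrays, and of 10.2 to 10.9 on lactation and 11.1 to 12.7 on pregnancy QSi5 arrays. Of 4 brown adipocyte genes, Ucp1 and Cox7a1 were lower in CBA/CaH, while Cidea, a lipid droplet protein also made by secreting mammary epithelium, was higher in both strains. Their summed level was 14.2 to 14.3 on lactation and 8.87 to 14.3 on pregnancy CBA/CaH arrays, and 14.2 to 14.3 on lactation and 8.66 to 9.32 on pregnancy QSi5 arrays. Of 6 skeletal muscle genes, 1 was higher in each strain. Of 4 genes induced by glucocorticoids, hormones that also act on Per1, 2 were lower in each strain. Of 6 immediate early genes, 2 were lower in CBA/CaH and 3 in QSi5, with 1 higher in each, and all 4 B and plasma cell genes were higher in QSi5. Their part in the clock gene differences was not tested.

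**Figure D1:**
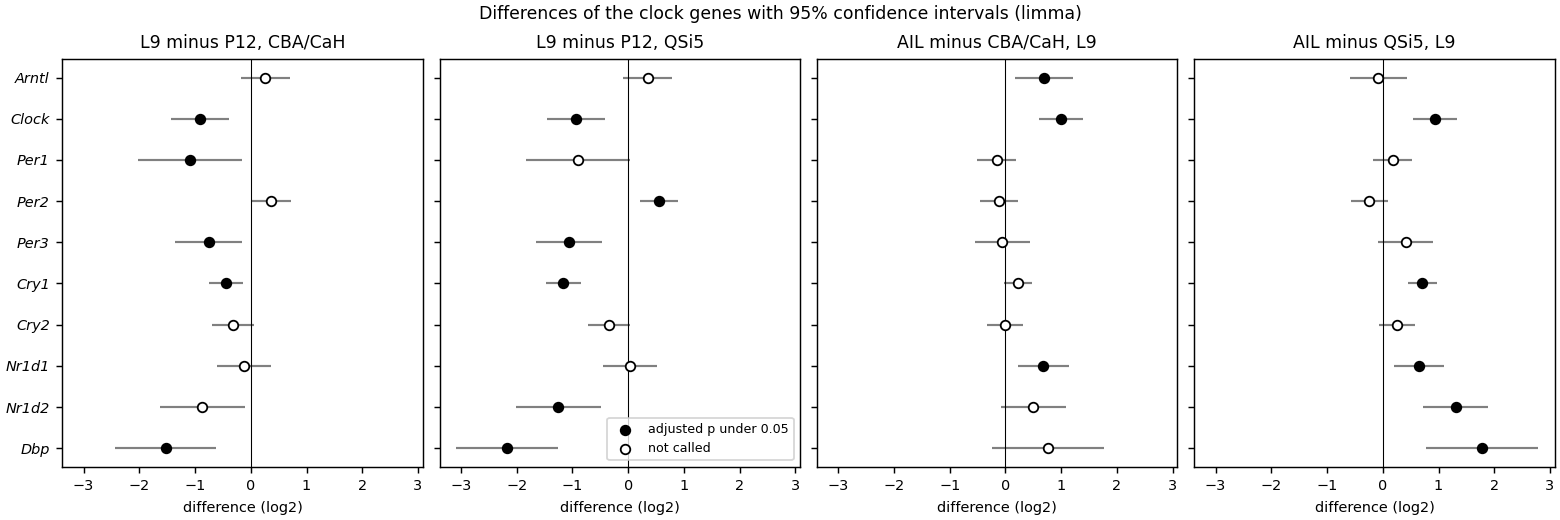
Differences of the 10 clock genes by lead probe set (log2 units, horizontal axis) with 95% confidence intervals from limma, in 4 panels: lactation minus pregnancy in CBA/CaH and in QSi5, and AIL minus CBA/CaH and AIL minus QSi5 at lactation. Filled points have an adjusted p under 0.05; Dbp lies farthest left in both stage panels (-1.53 and -2.18) and Clock lies right of 0 in both AIL panels (0.99 and 0.93).

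The second question was whether the intercross differed from its parental strains at lactation. Clock, a subunit of the activating pair, and Nr1d1, a receptor that represses Arntl, were higher in AIL than in each parent. Arntl was higher in AIL than in CBA/CaH, and Cry1, Nr1d2 and Dbp were higher in AIL than in QSi5. None of the 10 genes was lower in AIL by its lead probe set. By count, 3 of 10 were higher than in CBA/CaH, where 18% of all genes were higher and 16.2% lower. Against QSi5, 5 of 10 were higher, where 19.4% of all genes were higher and 18.5% lower. The median difference of the 10 genes was 0.36 against CBA/CaH and 0.53 against QSi5, beside -0.03 over all genes in both. Over all 23 clock probe sets it was 0.09 against CBA/CaH (5 called higher, 1 lower) and 0.19 against QSi5 (7 higher, 1 lower). Over all probe sets it was -0.07 and -0.08. Of all probe sets, 6611 were higher and 7814 lower against CBA/CaH, and 7085 and 9135 against QSi5. Equal array medians turned this to 8104 and 4627 and to 9047 and 4944, and cyclic loess to 5835 and 5758 and to 6268 and 6205. Among probe sets with a mean of at least 5, where all leads but that of Cry1 lie, more were higher than lower as deposited. There 6143 were higher and 3625 lower against CBA/CaH (median 0.05), and 6590 and 4100 against QSi5 (median 0.06).

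Without the arrays that stood apart, 3 clock genes were called higher and 0 lower against CBA/CaH, where 18.3% of all genes were higher and 16.2% lower. Against QSi5, 4 were called higher and 0 lower, where 13.8% of all genes were higher and 11.9% lower. Both AIL comparisons use the same 10 AIL arrays, and the parental lactation arrays are those of the stage comparison. For Gapdh, the 3′ minus 5′ value was 0.54 to 0.71 on AQ and 0.57 to 0.80 on AC arrays, against 1.48 to 1.62 on QSi5 and 1.12 to 2.02 on CBA/CaH arrays at lactation, without overlap. All 5 fibroblast genes were higher in AIL than in each parent, with a summed level of 12.2 to 12.8 on AQ and 12.0 to 12.7 on AC arrays, against 10.8 to 12.0 on QSi5 and 11.1 to 11.2 on CBA/CaH arrays. Of 4 white adipocyte genes, 2 were higher than in QSi5 and 3 higher than in CBA/CaH, with a summed level of 11.4 to 12.3 on AQ and 11 to 11.8 on AC arrays, against 10.2 to 10.9 on QSi5 and 10.1 to 11 on CBA/CaH arrays. Of the epithelial genes 1 was higher than in QSi5 and 1 lower than in CBA/CaH, and no brown adipocyte or muscle gene was called against either parent by limma (adjusted p under 0.05). Of 4 glucocorticoid-induced genes, 3 were higher than in QSi5 and 2 higher than in CBA/CaH. Of 4 B and plasma cell genes, 2 were lower than in QSi5 and 1 was higher than in CBA/CaH. Of 6 immediate early genes, 1 was higher and 1 lower than in QSi5, and 1 was higher than in CBA/CaH. The part of these values in the AIL differences was not tested.

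**Figure D2:**
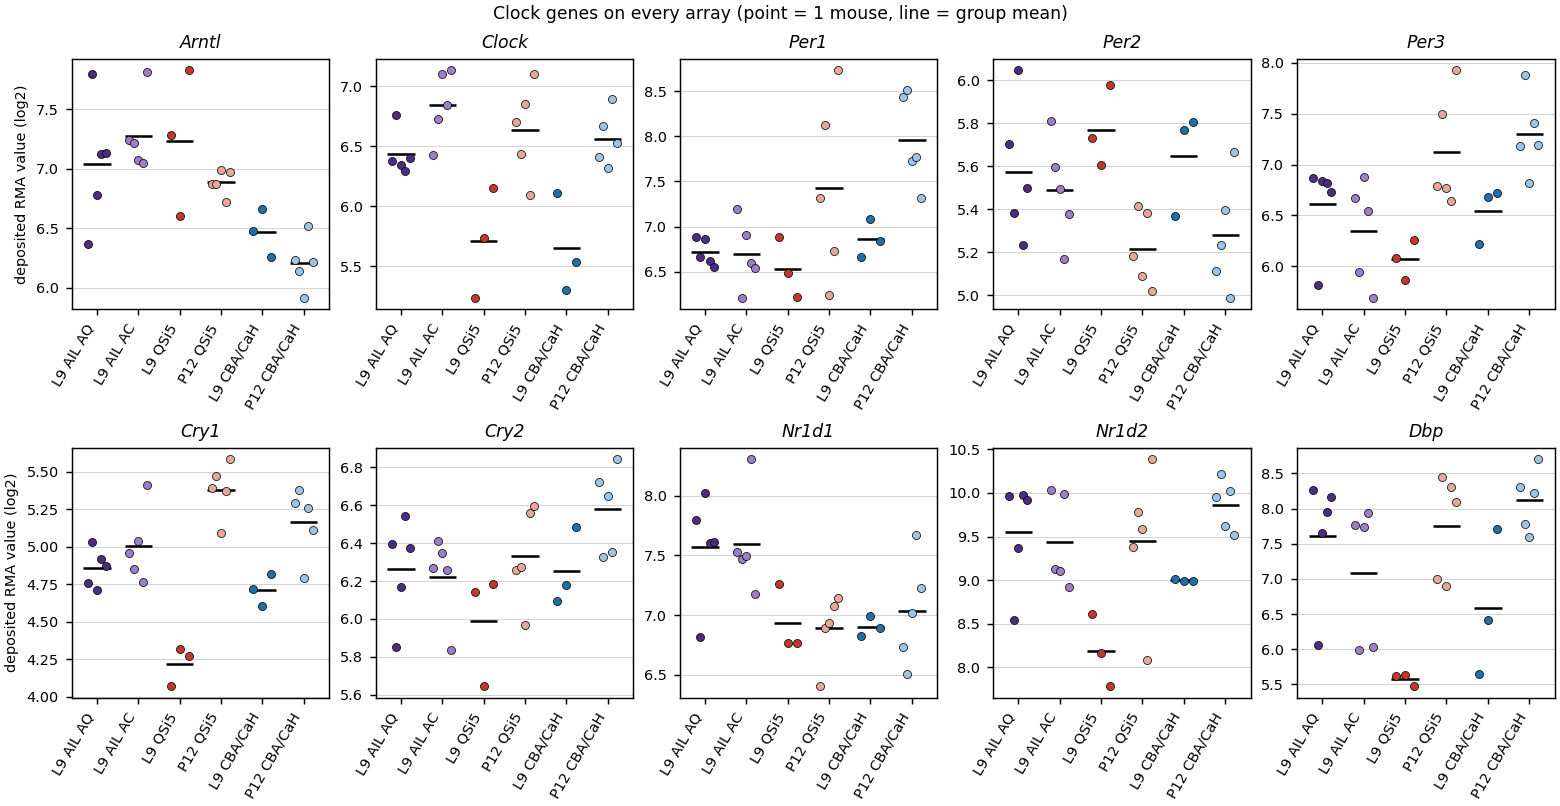
Deposited log2 value of the lead probe set of each clock gene (vertical axis, a scale of its own in each panel) on every array. Each point is 1 mouse and each bar a group mean, in the 6 groups of strain or line and stage (L9, lactation day 9; P12, pregnancy day 12). The 3 lactation QSi5 mice lie at 5.47 to 5.63 for Dbp and at 4.07 to 4.32 for Cry1, below every other mouse for Cry1.

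Among the activators, Clock encodes the partner of ARNTL, a protein that also acetylates histones. It had values of 5.24, 5.73 and 6.15 on lactation QSi5 arrays, against 6.70, 6.44, 6.85, 6.10 and 7.10 on pregnancy QSi5 arrays. On lactation CBA/CaH arrays it had 6.11, 5.31 and 5.54, against 6.41, 6.67, 6.32, 6.89 and 6.53 on pregnancy CBA/CaH arrays. The stages overlapped in QSi5 through 1 lactation and 1 pregnancy array and did not overlap in CBA/CaH. Clock fell by 0.93 in QSi5 (SE 0.25, adjusted p = 0.00451) and fell by 0.91 in CBA/CaH (SE 0.25, adjusted p = 0.00602). The AQ arrays had 6.37, 6.76, 6.34, 6.30 and 6.40 and the AC arrays 6.42, 6.72, 7.10, 6.84 and 7.13. Each AIL array thus lay above each parental lactation array, and Clock was higher in AIL by 0.93 against QSi5 (SE 0.19, adjusted p = 0.001) and by 0.99 against CBA/CaH (SE 0.19, adjusted p = 0.000666). By mean, the AIL groups (AQ 6.43, SD 0.19; AC 6.84, SD 0.29; n = 5 each) lay beside both pregnancy groups (QSi5 6.64, SD 0.39; CBA/CaH 6.56, SD 0.23; n = 5 each) and differed from them by less than 2 of these SDs.

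The other 3 probe sets of Clock followed the lead in part. The next brightest, with a mean of 6.25, was higher in AIL than in CBA/CaH by 0.40 (SE 0.11, adjusted p = 0.0104), as the lead was, and was called at neither stage comparison (-0.21 in CBA/CaH and 0.07 in QSi5). The next in brightness, with a mean of 5.63, had the sign of the lead in all 4 comparisons (-0.12 and -0.22 for stage in CBA/CaH and QSi5, 0.21 and 0.17 for AIL against CBA/CaH and QSi5), and none was called. The dimmest, with a mean of 3.41, had the opposite sign in all 4 and rose by 0.60 in QSi5 (SE 0.21, adjusted p = 0.0243). With the mean of all 4 probe sets in place of the lead, Clock was no longer called for stage (adjusted p = 0.0839 in CBA/CaH and 0.389 in QSi5) nor against QSi5 in AIL (adjusted p = 0.0982).

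Arntl encodes the subunit without which the oscillator stops in mice. It had 7.28, 6.60 and 7.83 on lactation QSi5 arrays, against 6.88, 6.87, 6.99, 6.72 and 6.97 on pregnancy QSi5 arrays. On lactation CBA/CaH arrays it had 6.48, 6.67 and 6.26, against 6.23, 6.15, 5.92, 6.52 and 6.22 on pregnancy CBA/CaH arrays. Stages overlapped in both strains, with differences of 0.35 in QSi5 (SE 0.21, adjusted p = 0.157) and 0.26 in CBA/CaH (SE 0.21, adjusted p = 0.297). The QSi5 difference was called without the lactation QSi5 array 2 (0.67, adjusted p = 0.00669), without all arrays set apart (0.68, adjusted p = 0.0181), after quantile normalization (0.84, adjusted p = 0.00424) and after cyclic loess (0.67, adjusted p = 0.00897), and the CBA/CaH difference after cyclic loess (0.52, adjusted p = 0.0377). The AQ arrays had 6.37, 7.79, 6.78, 7.13 and 7.14 and the AC arrays 7.24, 7.22, 7.08, 7.05 and 7.81. They overlapped both parents, and the difference was 0.69 against CBA/CaH (SE 0.25, adjusted p = 0.0401) and -0.08 against QSi5 (SE 0.25, adjusted p = 0.832). The call against CBA/CaH was lost without any 1 of the CBA/CaH arrays 1, 2 and 3, AC5, AQ4 or AQ5 (adjusted p = 0.0545 to 0.171) and with array weights (adjusted p = 0.0789), quantile normalization (adjusted p = 0.0923) or cyclic loess (adjusted p = 0.0994).

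The second Arntl probe set, with a mean of 5.42, went another way. It rose at lactation in QSi5 by 0.69 (SE 0.12, adjusted p = 0.000208) and in CBA/CaH by 0.64 (SE 0.12, adjusted p = 0.000536). It was lower in AIL than in QSi5 (-0.70, SE 0.11, adjusted p = 8.5e-05) and than in CBA/CaH (-0.37, SE 0.11, adjusted p = 0.0129), opposite in sign to the lead set against CBA/CaH. The mean of both sets was higher at lactation in QSi5 (0.52, adjusted p = 0.00103) and CBA/CaH (0.45, adjusted p = 0.00361). In AIL that mean was lower than in QSi5 (-0.39, adjusted p = 0.0251) and was not called against CBA/CaH (0.16, adjusted p = 0.357). Across the 10 AIL arrays the r of both sets was -0.37, a description over arrays that share their normalization. The lead set therefore stands for Arntl below only with this disagreement.

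**Figure D3:**
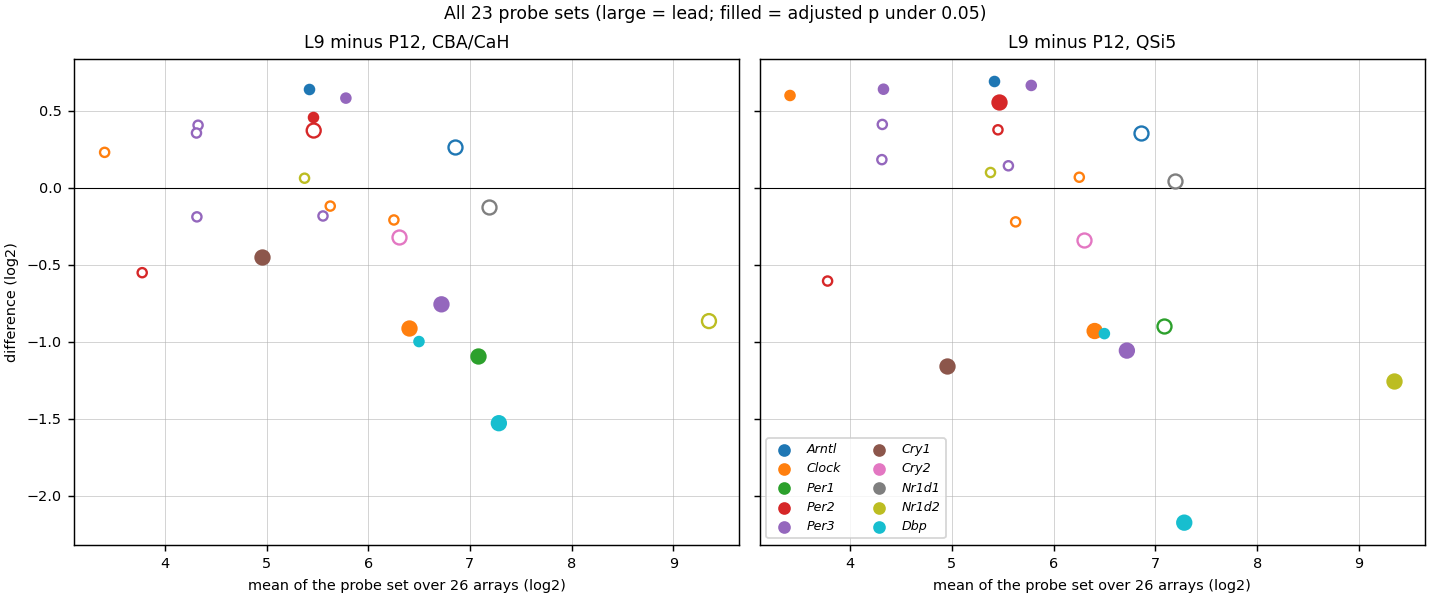
Difference between lactation and pregnancy (log2 units, vertical axis) of all 23 clock probe sets against their mean over 26 arrays (log2, horizontal axis), in CBA/CaH (left) and QSi5 (right). Large points are lead probe sets and filled points have an adjusted p under 0.05; in CBA/CaH 3 probe sets were called above 0 and 6 below, and in QSi5 5 above and 6 below.

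Among the repressors, Per1 encodes a PERIOD protein that enters the nucleus with CRY and is also switched on by glucocorticoids. It had 6.66, 7.09 and 6.84 on lactation CBA/CaH arrays, against 8.44, 8.52, 7.72, 7.77 and 7.32 on pregnancy CBA/CaH arrays, without overlap. On lactation QSi5 arrays it had 6.88, 6.49 and 6.22, against 7.31, 8.13, 6.24, 6.72 and 8.73 on pregnancy QSi5 arrays, of which arrays 3 and 4 reached down into the lactation range. In CBA/CaH, Per1 fell by 1.09 (SE 0.44, adjusted p = 0.0477), and its QSi5 difference was -0.90 (SE 0.44, adjusted p = 0.0902). The CBA/CaH call was lost without any 1 of its arrays except the pregnancy array 5 (adjusted p = 0.0546 to 0.129), and after quantile normalization (-0.58, adjusted p = 0.24) or cyclic loess (-0.76, adjusted p = 0.17). The QSi5 difference was called without the pregnancy QSi5 array 3 (-1.20, adjusted p = 0.019) or 4 (-1.07, adjusted p = 0.0446) and when all 6 groups shared 1 fit (adjusted p = 0.0388). Leaving out the 8 arrays set apart, Per1 fell by 1.17 in QSi5 (adjusted p = 0.00626) and fell by 1.62 in CBA/CaH (adjusted p = 0.000635). AIL arrays, at 6.55 to 6.89 for AQ and 6.21 to 7.19 for AC, lay across both parents, with differences of 0.18 against QSi5 and -0.16 against CBA/CaH (SE 0.17 for both; adjusted p = 0.441 and 0.505).

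Per3 encodes the PERIOD protein that mouse rhythms can do without. It had 6.08, 5.86 and 6.26 on lactation QSi5 arrays, against 6.79, 7.50, 6.77, 6.64 and 7.93 on pregnancy QSi5 arrays. On lactation CBA/CaH arrays it had 6.22, 6.68 and 6.72, against 7.18, 7.88, 6.82, 7.40 and 7.20 on pregnancy CBA/CaH arrays. The stages did not overlap in either strain, and Per3 fell by 1.06 in QSi5 (SE 0.28, adjusted p = 0.00454) and fell by 0.76 in CBA/CaH (SE 0.28, adjusted p = 0.0327). The CBA/CaH call was lost without the pregnancy array 2 or 4 or any 1 of the lactation arrays 1, 2 and 3 (adjusted p = 0.0508 to 0.138), after quantile normalization (-0.38, adjusted p = 0.203) and after cyclic loess (-0.55, adjusted p = 0.109). Against the parents at lactation, Per3 differed in AIL by 0.41 from QSi5 (SE 0.23, adjusted p = 0.179) and by -0.06 from CBA/CaH (SE 0.23, adjusted p = 0.873). A dimmer Per3 set, with a mean of 5.78, rose by 0.66 in QSi5 (SE 0.18, adjusted p = 0.00586) and in CBA/CaH by 0.58 (SE 0.18, adjusted p = 0.0147), and another, with a mean of 4.33, rose by 0.64 in QSi5 (SE 0.17, adjusted p = 0.00422). The mean over all 6 sets gave 0.16 in QSi5 and 0.03 in CBA/CaH, so the fall of Per3 is that of the lead set.

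Per2, a PERIOD protein on which mouse rhythms depend strongly, lay at 5.61 to 5.98 on lactation and 5.02 to 5.41 on pregnancy QSi5 arrays, without overlap. It lay at 5.37 to 5.81 on lactation and 4.99 to 5.66 on pregnancy CBA/CaH arrays, with overlap. Per2 rose by 0.55 in QSi5 (SE 0.16, adjusted p = 0.00932). Its CBA/CaH difference was 0.37 (SE 0.16, adjusted p = 0.0693). The rise in QSi5 was lost without the lactation array 3 (0.45, adjusted p = 0.0544), once array medians were made equal (0.33, adjusted p = 0.0866) after cyclic loess (0.22, adjusted p = 0.254) and with the mean of its 3 probe sets (0.11, adjusted p = 0.53). In CBA/CaH it was called without all arrays set apart (0.48, adjusted p = 0.0447), with array weights (0.42, adjusted p = 0.0223) and without the pregnancy array 5 (0.47, adjusted p = 0.0215) or the lactation array 1 (0.51, adjusted p = 0.031). The second set, with a mean of 5.45, rose in CBA/CaH by 0.46 (SE 0.17, adjusted p = 0.0346), and its QSi5 difference was 0.37 (SE 0.17, adjusted p = 0.0717). The dimmest set, with a mean of 3.78, pointed the other way, at -0.61 in QSi5 (SE 0.27, adjusted p = 0.0624) and -0.55 in CBA/CaH (SE 0.27, adjusted p = 0.0935), and was not called. AIL arrays lay at 5.23 to 6.05 for AQ and 5.17 to 5.81 for AC and were not called against QSi5 (-0.24, adjusted p = 0.25) or CBA/CaH (-0.12, adjusted p = 0.61; SE 0.16 for both).

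Cry1 encodes a CRYPTOCHROME, the strongest repressor of the ARNTL and CLOCK pair. Its 1 probe set is dim, with a mean of 4.96, above that of 28.4% of all genes. Cry1 had 4.07, 4.32 and 4.27 on lactation QSi5 arrays, against 5.39, 5.47, 5.09, 5.37 and 5.59 on pregnancy QSi5 arrays. On lactation CBA/CaH arrays it had 4.72, 4.61 and 4.82, against 5.29, 5.38, 4.79, 5.26 and 5.12 on pregnancy CBA/CaH arrays. The QSi5 stages lay far apart, and in CBA/CaH 1 pregnancy array lay within the lactation range. Cry1 fell by 1.16 in QSi5 (SE 0.14, adjusted p = 1e-05) and fell by 0.45 in CBA/CaH (SE 0.14, adjusted p = 0.0157), a call lost when array 2 of lactation CBA/CaH was left out (-0.40, adjusted p = 0.0666). The difference between the strains in this fall was -0.71 (SE 0.20), with an unadjusted p of 0.00324 and an adjusted p = 0.491 in limma. The AQ arrays had 4.76, 5.03, 4.71, 4.92 and 4.87 and the AC arrays 4.96, 4.85, 5.04, 4.77 and 5.41, all above QSi5. Cry1 was higher in AIL than in QSi5 by 0.71 (SE 0.12, adjusted p = 0.00023), and the difference from CBA/CaH was 0.22 (SE 0.12, adjusted p = 0.177), called after quantile normalization (0.36, adjusted p = 0.0473) and cyclic loess (0.39, adjusted p = 0.0314). By mean, pregnancy QSi5 (5.38, SD 0.18) and CBA/CaH (5.17, SD 0.23) came first, then AC (5.00, SD 0.25) and AQ (4.86, SD 0.13), lactation CBA/CaH (4.71, SD 0.10) and last lactation QSi5 (4.22, SD 0.13), the only group that lay more than 2 SDs, by the larger SD of the pair, from its neighbour in this order.

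By lead probe set Cry2, the other CRYPTOCHROME, had the smallest stage differences of the 5 repressors. With the mean of all probe sets, those of Per3 (0.16 in QSi5 and 0.03 in CBA/CaH) and of Per2 in QSi5 (0.11) were smaller. Cry2 lay at 5.64 to 6.18 on lactation and 5.97 to 6.60 on pregnancy QSi5 arrays, and at 6.10 to 6.49 on lactation and 6.33 to 6.84 on pregnancy CBA/CaH arrays. The differences of -0.34 in QSi5 and -0.32 in CBA/CaH (SE 0.18 for both) were not called (adjusted p = 0.113 and 0.138), but both passed once array medians were made equal (-0.56 and -0.50, with adjusted p = 0.0155 and 0.0321). AIL arrays lay at 5.85 to 6.54 for AQ and 5.84 to 6.41 for AC, across both parents, with differences of 0.25 against QSi5 (adjusted p = 0.206) and -0.01 against CBA/CaH (adjusted p = 0.968; SE 0.15 for both).

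Among the nuclear receptors, Nr1d1 encodes REV-ERB alpha, a heme-binding repressor of Arntl. It was called for stage in neither strain, at 6.76 to 7.26 on lactation and 6.40 to 7.14 on pregnancy QSi5 arrays, and at 6.82 to 7.0 on lactation and 6.51 to 7.67 on pregnancy CBA/CaH arrays. The differences were 0.04 in QSi5 (SE 0.23, 95% confidence interval -0.44 to 0.52, adjusted p = 0.888) and -0.13 in CBA/CaH (SE 0.23, 95% confidence interval -0.61 to 0.36, adjusted p = 0.651). The AQ arrays had 7.80, 6.82, 8.02, 7.60 and 7.61 and the AC arrays 7.53, 7.47, 7.50, 8.31 and 7.18, of which all but AQ2 and AC5 lay above each parental array at lactation. Nr1d1 was higher in AIL by 0.65 against QSi5 (SE 0.22, adjusted p = 0.0252) and by 0.68 against CBA/CaH (SE 0.22, adjusted p = 0.0225). The call against QSi5 was lost without the QSi5 array 2 (adjusted p = 0.116) or 3 (adjusted p = 0.0993), and that against CBA/CaH without the CBA/CaH array 1 (adjusted p = 0.0763) or 3 (adjusted p = 0.0766). Both were lost after quantile normalization (adjusted p = 0.136 and 0.125), cyclic loess (adjusted p = 0.147 and 0.119) and with array weights (adjusted p = 0.0717 and 0.0541). The call against QSi5 was also lost without all arrays set apart (0.58, adjusted p = 0.126).

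Nr1d2 encodes REV-ERB beta, which shares the targets of REV-ERB alpha. It had 8.61, 8.17 and 7.78 on lactation QSi5 arrays, against 9.38, 9.78, 9.59, 8.09 and 10.39 on pregnancy QSi5 arrays, where only array 4 reached the lactation range. On lactation CBA/CaH arrays it had 9.02, 8.99 and 8.99, against 9.95, 10.22, 9.62, 10.02 and 9.52 on pregnancy CBA/CaH arrays, without overlap. Nr1d2 fell by 1.26 in QSi5 (SE 0.36, adjusted p = 0.00729), a call lost after quantile normalization (-0.51, adjusted p = 0.209) and cyclic loess (-0.53, adjusted p = 0.176). The difference of -0.87 in CBA/CaH (SE 0.36, adjusted p = 0.0527) was called without the pregnancy array 5 (-0.95, adjusted p = 0.0475), without all arrays set apart (-1.09, adjusted p = 0.00325), with array weights (-0.90, adjusted p = 0.00415), once array medians were made equal (-1.04, adjusted p = 0.0357) and under the filter on mean level (adjusted p = 0.049). The AQ arrays had 9.96, 8.54, 9.37, 9.98 and 9.91 and the AC arrays 10.04, 9.13, 9.11, 9.99 and 8.93. All but AQ2 lay above each QSi5 array, and Nr1d2 was higher in AIL than in QSi5 by 1.31 (SE 0.28, adjusted p = 0.00155). The difference from CBA/CaH was 0.50 (SE 0.28, adjusted p = 0.182), called without AQ2 (0.62, adjusted p = 0.0464). The second Nr1d2 set, with a mean of 5.37, was higher in AIL by 0.93 against QSi5 (SE 0.22, adjusted p = 0.00309) and by 0.94 against CBA/CaH (SE 0.22, adjusted p = 0.00324), and did not pass the threshold for stage. With the mean of both sets the AIL difference from CBA/CaH was called (0.72, adjusted p = 0.0233), and the stage difference in QSi5 was not (-0.58, adjusted p = 0.0634).

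Dbp encodes an activator of the PAR bZIP family that the ARNTL and CLOCK pair drives directly, so its transcript follows the oscillator with a wide daily swing in other mouse tissues. It had 5.61, 5.63 and 5.47 on lactation QSi5 arrays, against 7.0, 8.45, 6.90, 8.30 and 8.09 on pregnancy QSi5 arrays. On lactation CBA/CaH arrays it had 5.65, 6.41 and 7.71, against 8.31, 7.78, 7.60, 8.22 and 8.70 on pregnancy CBA/CaH arrays. The QSi5 stages did not overlap, and in CBA/CaH 1 lactation array lay just within the pregnancy range. Dbp fell by 2.18 in QSi5 (SE 0.43, 95% confidence interval -3.09 to -1.27, adjusted p = 0.000545) and fell by 1.53 in CBA/CaH (SE 0.43, 95% confidence interval -2.44 to -0.62, adjusted p = 0.00766). The CBA/CaH call was lost without the lactation array 1 (-1.06, adjusted p = 0.0614), after quantile normalization (-1.10, adjusted p = 0.0687) and after cyclic loess (-1.14, adjusted p = 0.0582). The suffix of the lead set's name marks it as one whose probes may match more than 1 transcript. The second Dbp set, with a mean of 6.50, fell by 0.95 in QSi5 (SE 0.38, adjusted p = 0.0427) and fell by 1.00 in CBA/CaH (SE 0.38, adjusted p = 0.0376).

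Within AIL, Dbp had 8.27, 6.05, 7.65, 7.95 and 8.17 on AQ arrays and 7.76, 5.99, 7.74, 7.93 and 6.03 on AC arrays. The 10 values fell into 2 sets, 3 arrays at 5.99 to 6.05 and 7 at 7.65 to 8.27. Dbp was higher in AIL than in QSi5 by 1.78 (SE 0.48, 95% confidence interval 0.78 to 2.79, adjusted p = 0.00792), and the difference from CBA/CaH was 0.76 (SE 0.48, adjusted p = 0.238). The second Dbp set was higher in AIL than in QSi5 by 1.01 (SE 0.32, adjusted p = 0.0201), and its r with the lead set over the 10 AIL arrays was 0.94. All 3 QSi5 mice lay below every AIL mouse, the 3 low ones included.

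Between the strains no clock gene was called. For QSi5 minus CBA/CaH at pregnancy the 10 differences ran between -0.53 (Per1) and 0.68 (Arntl), with adjusted p of 0.107 or more, where 1.22% of all genes were called in either direction. At lactation they ran between -1.02 (Dbp) and 0.77 (Arntl), with adjusted p of 0.443 or more, where 0.346% of all genes were called. The interaction of strain and stage, which asks whether the stage difference is unequal, ran between -0.71 (Cry1) and 0.19 (Per1), with adjusted p of 0.491 or more, where 0.0989% of all genes were called. AQ minus AC ran between -0.41 (Clock) and 0.53 (Dbp), with an adjusted p of 1 for each, where 0% of all genes were called. At an unadjusted p under 0.05 limma gave 1 gene for strain at pregnancy (Arntl), 3 at lactation (Arntl, Cry1 and Dbp), 1 for the interaction (Cry1) and 1 for the codes (Clock).

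Arntl came nearest to a strain difference. All 5 pregnancy QSi5 arrays, at 6.72 to 6.99, lay above all 5 pregnancy CBA/CaH arrays, at 5.92 to 6.52, a difference of 0.68 (SE 0.18, adjusted p = 0.107). Array weights led to a call (0.71, adjusted p = 0.0169), as did the mean of both probe sets (0.48, adjusted p = 0.0201). At lactation the QSi5 arrays, at 6.60 to 7.83, overlapped the CBA/CaH arrays, at 6.26 to 6.67, and the difference of 0.77 (SE 0.23, adjusted p = 0.443) was called without the lactation QSi5 array 2, the one at 6.60 (1.08, adjusted p = 0.0353). Without all arrays that stood apart, the lactation difference was also 1.08 but was not called (adjusted p = 0.0504). In lactating mice, Cry1 differed by -0.49 (SE 0.16, adjusted p = 0.54) and Dbp by -1.02 (SE 0.48, adjusted p = 0.959), neither past the threshold.

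The scatter of the clock genes between mice of 1 group differed widely. Dbp had a pooled SD within groups of 0.79, above that of 98.2% of the 1000 probe sets nearest to it in mean level. Nr1d2, with 0.56, and Per1, with 0.55, lay above 91.1% and 92% of their neighbours. Per3 (0.44) lay above 82.7%, Nr1d1 (0.38) above 73.3%, Arntl (0.36) above 66.9% and Clock (0.32) above 62.9%. Per2 (0.25), Cry2 (0.25) and Cry1 (0.19) lay above 49.2%, 41.6% and 22.4%. The SD of Dbp was 0.91 within AQ, 0.99 within AC and 1.04 within lactation CBA/CaH mice, but 0.09 within lactation QSi5 mice, where all 3 values stood low. For Per1 the SD was 1.01 within pregnancy QSi5 mice and at most 0.51 within the other groups. For Nr1d2 it was 0.85 within pregnancy QSi5 mice and at most 0.62 within the other groups. The pregnancy QSi5 arrays 3, 4 and 5 stood apart by other tissues or the Gapdh value, and no SD without them is given here.

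Several clock genes scattered together across the AIL mice. The 3 mice with the lowest Dbp, AC2, AC5 and AQ2, were also the 3 with the lowest Per3, at 5.69 to 5.94 against 6.55 to 6.88 in the other 7. They also had the 3 lowest Nr1d1 values, at 6.82 to 7.47, but the next mouse, AC3, had 7.50. AC5 and AQ2 had the highest Arntl, at 7.81 and 7.79, and the highest Arntl of the other mice was 7.24. AC2 was unlike them, with 7.22 for Arntl and 6.41 for Cry2, where AC5 had 5.84 and AQ2 5.85. These 3 mice were picked out by their Dbp values after those were seen, so no test was made of them as a group. Over the 10 AIL arrays the r of Dbp with the marker lists ran between 0.04 for fibroblast genes and 0.52 for B and plasma cell genes, it was -0.19 for the Gapdh 3′ minus 5′ value and 0.01 for the array median, each as a description with n = 10.

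**Figure D4:**
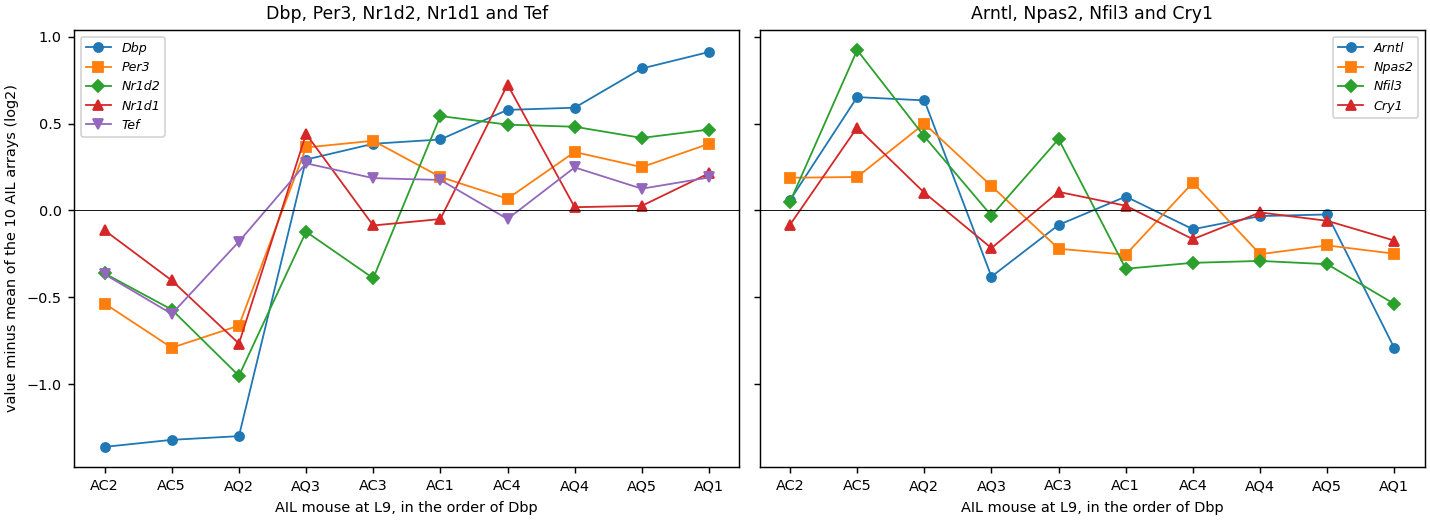
Value minus the mean of the 10 AIL arrays (log2, vertical axis) for each AIL mouse at lactation, the mice set in the order of Dbp (horizontal axis). Left, Dbp, Per3, Nr1d2, Nr1d1 and Tef; right, Arntl, Npas2, Nfil3 and Cry1; genes outside the 10 members were chosen for the plot after their values were seen. AC2, AC5 and AQ2 lie lowest for Dbp, Per3 and Tef, and AC5 and AQ2 highest for Arntl.

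Arntl was set against the other 9 genes over the 10 AIL arrays, with permutation p-values adjusted over the 9 relations. Cry1, by its 1 dim probe set, went with Arntl (Pearson's r = 0.78, permutation p = 0.0069, adjusted p = 0.0208; Spearman's rho = 0.76, permutation p = 0.0143). Nr1d1, the repressor of Arntl, went against it (r = -0.74, permutation p = 0.0156, adjusted p = 0.0352; rho = -0.83, permutation p = 0.0043). Cry2 had r = -0.69 (permutation p = 0.0276, adjusted p = 0.0497) but rho = -0.36 (permutation p = 0.3118). Without AQ1 and AC5, the 2 arrays farthest from the median of Arntl, r was 0.68 for Cry1, -0.85 for Nr1d1 and -0.57 for Cry2. Nr1d2 (r = -0.63, adjusted p = 0.077), Clock (r = 0.55, adjusted p = 0.1358), Per2 (r = -0.44, adjusted p = 0.2271) and Per1 (r = -0.31, adjusted p = 0.3746) did not pass by these permutation tests. The relation of Nr1d1 passed neither with equal array medians (adjusted p = 0.0632) nor once AC1, the AIL array set apart by muscle genes, was dropped (adjusted p = 0.0511), and that of Cry1 did not pass after quantile normalization (adjusted p = 0.0522). The relation of Cry2 passed under none of these settings or cyclic loess (adjusted p = 0.056 to 0.093). When the permutation p-values were adjusted over 7 relations, leaving out Per3 and Dbp, a choice made after seeing the data, Cry1 passed (adjusted p = 0.0485) and Nr1d1 (adjusted p = 0.0548) and Cry2 (adjusted p = 0.0644) did not.

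For Dbp and Per3, whose AIL values fell into separate sets, no r with Arntl over all 10 arrays is given. The r values of Dbp given above, with its second probe set and with the marker lists, do span both of its sets. Within the 7 arrays of the upper set r with Arntl was -0.41 for Dbp and -0.47 for Per3, as a description. Within the 6 AIL arrays coded 1 to 3, r was 0.76 for Cry1, -0.88 for Nr1d1 and -0.67 for Cry2, and the 4 arrays coded 4 and 5 were too few. The Arntl values are those of its lead probe set. Taken as deviations from the group means over all 26 arrays, r with Arntl was 0.41 for Cry1, -0.34 for Nr1d1, -0.25 for Cry2 and -0.48 for Dbp, and among the pregnancy arrays alone it was 0.40, 0.45, -0.36 and 0.08. The value of -0.48 for Dbp includes its AIL values in their separate sets. Nr1d1 thus had the opposite sign at pregnancy, as a description over arrays that share a normalization.

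Among 9725 genes with a mean of at least 6, those whose deviations from the group means over the 26 arrays were most like Dbp were Tspan4 (r = 0.82), Tef (r = 0.80), Pcsk4 (r = 0.70), Rsad1 (r = 0.64) and Bnip3 (r = 0.60). Tef is the sister gene of Dbp in the PAR bZIP family. The most opposite were Neto1 (r = -0.81), Sting1 (r = -0.79), Spata5 (r = -0.68), Trnp1 (r = -0.66) and Npas2 (r = -0.66), and NPAS2 can take the place of CLOCK beside ARNTL. Most like the lead set of Arntl were Sac3d1, Psma3, Dnajc12 and Nol4l (r = 0.76 each) and Guk1 (r = 0.74), and the most opposite were Plekha7 (r = -0.73), Cnnm1 (r = -0.71), Ripor2 (r = -0.67), Crb1 (r = -0.66) and R3hcc1l (r = -0.64). These are the extremes of a long ranking and carry no p. The arrays that stood apart were kept in it, and the AIL values of Dbp fell into separate sets.

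Of 25 other genes of the clock and its near outputs, 23 were measured. At lactation 5 were lower and 7 higher in CBA/CaH, while QSi5 had 6 lower and 8 higher, with median differences of 0.19 and 0.11. Against each parent at lactation, 7 were higher and 1 lower in AIL than in QSi5, and 6 higher and 2 lower than in CBA/CaH, with median differences of 0.16 and 0.08. These shares stand beside the percentages of all genes given above. None was called by limma for strain, the interaction or the codes, and at an unadjusted p under 0.05 there were 1 for strain at each stage and 0 for the interaction and the codes.

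Among the 5 other repressors, Timeless, which acts at the replication fork and whose clock role is best known from its fly namesake, fell by 1.81 in QSi5 (SE 0.27, adjusted p = 4.64e-05) and fell by 1.57 in CBA/CaH (SE 0.27, adjusted p = 0.000214). It was lower again in AIL than in QSi5 (-0.73, SE 0.13, adjusted p = 0.000428) and CBA/CaH (-0.61, SE 0.13, adjusted p = 0.00192). Cipc, which binds and inhibits CLOCK, fell by 1.45 in QSi5 (SE 0.22, adjusted p = 5.62e-05) and fell by 1.24 in CBA/CaH (SE 0.22, adjusted p = 0.000305). Ciart, a repressor of the ARNTL and CLOCK pair, rose by 0.59 in QSi5 (SE 0.15, adjusted p = 0.00436) and by 0.59 in CBA/CaH (SE 0.15, adjusted p = 0.00488). Bhlhe40, which competes for E-boxes, was higher in AIL than in QSi5 by 1.32 (SE 0.33, adjusted p = 0.00501) and fell by 1.14 at lactation in QSi5 (SE 0.38, adjusted p = 0.0174).

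Among the 4 measured relatives of the activators, all 4 rose in QSi5 and 2 rose in CBA/CaH. Of these, Rorb is dim, with a mean of 4.72. Rora, a receptor that activates Arntl, rose by 1.68 in QSi5 (SE 0.59, adjusted p = 0.0222) and was higher in AIL than in QSi5 by 1.05 (SE 0.21, adjusted p = 0.000825) and than in CBA/CaH by 1.11 (SE 0.21, adjusted p = 0.000554). The SD of Rora was 1.52 within pregnancy QSi5 mice, against 0.23 within lactation QSi5 and 0.14 within pregnancy CBA/CaH mice. The pregnancy QSi5 arrays 3, 4 and 5 stood apart, and no Rora difference without them is given here. Among the output genes, Noct, also called nocturnin, whose transcript cycles in many mouse tissues, fell by 1.52 in QSi5 (SE 0.25, adjusted p = 0.000106) and fell by 1.57 in CBA/CaH (SE 0.25, adjusted p = 0.000115). Noct was higher in AIL than in QSi5 by 0.92 (SE 0.21, adjusted p = 0.00268) and than in CBA/CaH by 0.82 (SE 0.21, adjusted p = 0.00657). Nampt, an enzyme of NAD synthesis, was higher in AIL than in CBA/CaH by 0.70 (SE 0.15, adjusted p = 0.00195).

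Among the enzymes that modify clock proteins, Csnk1d, a kinase that marks PER for decay, rose by 0.98 in QSi5 (SE 0.17, adjusted p = 0.000166) and in CBA/CaH by 0.83 (SE 0.17, adjusted p = 0.000829). Fbxl21, part of a ubiquitin ligase for CRY, rose by 0.89 in QSi5 (SE 0.19, adjusted p = 0.000934) and in CBA/CaH by 0.52 (SE 0.19, adjusted p = 0.0302). Its probe set is dim, with a mean of 4.33. The QSi5 stage median stood 0.19 above 0 over all probe sets, dim ones included, and was -0.20 at a mean of at least 5. Usp2, a deubiquitinase, was lower in AIL than in CBA/CaH (-0.48, SE 0.15, adjusted p = 0.0198). Of the PAR bZIP genes and their antagonist, Nfil3, the repressor that competes with DBP for its sites, rose in CBA/CaH by 0.71 (SE 0.26, adjusted p = 0.0316), and none of the 3 was called in QSi5 or in AIL. Tef and Hlf, the relatives of Dbp, were called in none of these 4 comparisons. The same 3 AIL mice with low Dbp had the 3 lowest Tef values and the 3 highest Npas2 values, and 2 of them, AC5 and AQ2, were among the 3 highest for Nfil3. For Npas2 the margin was small, with 6.90 on AC2 and 6.87 on AC4. Tef and Npas2 also stood at the extremes of the ranking by likeness to Dbp, which included these same mice. These genes were picked after their values were seen, so their order here is a description and no separate support.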

How the data were processed

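RNA was extracted with a Qiagen kit and labelled as biotinylated cRNA, as the growth and extract protocols record. The authors deposited 1 log2 value for each probe set and array, and RMA is named in the submitters' processing notes as the tool. The version, the chip definition and whether all arrays were processed together are not given in the sources used here, and array medians differed between stages. At lactation they also differed between AIL and the parents, without overlap. They lay at 5.16 to 5.21 on AQ and 5.13 to 5.22 on AC arrays, against 5.26 to 5.30 on QSi5 and 5.25 to 5.27 on CBA/CaH arrays. RMA draws differences of dim probe sets toward 0. The values were used as deposited.

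From these values, 64 Affymetrix controls were left out and 45037 probe sets were tested, 34945 with 1 symbol, 932 with several and 9160 with none in the platform annotation. limma 3.58.1 under R 4.3.3 gave the tests through lmFit and eBayes. The 16 parental arrays had 1 model and the 16 lactation arrays another, where AIL is the mean of its AQ and AC means. Benjamini-Hochberg adjustment ran over every tested probe set. The models were tested on simulated data. Correlations used 100000 permutations, two-sided. The labels name each array as a separate mouse of a group, and nothing more is said of litters or batches.

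Genes named outside the 10 members are up to 3 called in each direction per comparison from a list of other clock genes, and the 5 most and least like Arntl and Dbp. The members and all lists were chosen with earlier results of these data known. Alternatives were a mean of at least 5, quantile normalization, equal array medians, cyclic loess, a robust variance trend, all 6 groups in 1 fit, array weights, the mean of a gene's probe sets, leaving out arrays that stood apart (over 1 log2 unit above the rest of their group), a block on replicate numbers, subsets of AIL arrays and each array left out in turn. Promoters are RefSeq sequences on GRCm38.p6. Figures were drawn with matplotlib 3.10.9.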

Additional observations from a re-analysis of the deposited data

Results flagged for a closer look

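For the 10 clock genes in the 4 groups of 5 arrays, 40 sets in all, the outermost array was set against the rest. In 5 sets its gap to the next array was more than a share of 0.71 of the group's range, where chance alone gives about 1 in 20. All 5 were AIL mice, AQ2 for 3 genes and AC5 for 2. On AQ2, Dbp was 6.05, against 7.65 to 8.27 on the other AQ arrays. Per3 on the same array was 5.82, against 6.73 to 6.86. Clock there was 6.76, against 6.30 to 6.40, the only one of the 3 that lay above its group. On AC5, Arntl was 7.81, against 7.05 to 7.24 on the other AC arrays. Cry2 on that array was 5.84, against 6.26 to 6.41. Both mice were among the 3 with low Dbp. Neither array stood apart by the markers of other tissues or by the Gapdh control.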

How the results depend on the processing

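The labels number the arrays of each group, and a replicate block on these numbers was fitted as an alternative. Deviations of same-numbered arrays did not go together in any pair of groups throughout, so the numbers were not taken as pairs. AQ with AC came nearest, with r of 0.14, 0.01, 0.16, 0.32 and 0.24 for arrays 1 to 5. The permutation tests over the AIL arrays did not allow for this. Under the replicate block Per3 (-0.70, adjusted p = 0.0589) and Cry1 (-0.41, adjusted p = 0.0531) were no longer called for stage in CBA/CaH, Nr1d2 was (-0.97, adjusted p = 0.0456), and Arntl was no longer called against CBA/CaH in AIL (0.61, adjusted p = 0.114). Nr1d1 turned to 0.08 for stage in CBA/CaH and Per2 to 0.02 for AIL against CBA/CaH. The cause of the changes below was not tested.

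For stage in CBA/CaH, where 5 genes were called, 2 were called after quantile normalization, 3 after cyclic loess and 2 to 7 with 1 array left out. For stage in QSi5, 3 in place of 6 were called with the mean of all probe sets. For AIL against CBA/CaH, 1 in place of 3 was called with array weights and 1 to 4 with 1 array left out. For strain at pregnancy 1 was called in place of 0 with array weights and 1 with the mean of all probe sets, and for strain at lactation 0 to 1 with 1 array left out. Of the relations with Arntl other than those of Per3 and Dbp, 3 passed as deposited, and 1 passed after quantile normalization, 1 with equal array medians, 1 without the arrays that stood apart and 1 with p adjusted over 7 relations. Under the filter on mean level Cry1, with a mean of 4.96, was not tested.

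Signs turned as follows, and of the turned differences only that of Per3 for stage had been called. Nr1d1 for stage became 0.29 after quantile normalization, 0.24 after cyclic loess and 0.28 without the arrays that stood apart in CBA/CaH (-0.26 to 0.03 with 1 array left out), and -0.18 with equal array medians in QSi5 (-0.12 to 0.12). For Per3 the mean of its probe sets gave 0.03 in CBA/CaH and 0.16 in QSi5 for stage. For AIL against CBA/CaH, Per3 was 0.03 and Cry2 0.08 with equal array medians (-0.22 to 0.04 and -0.09 to 0.11 with 1 array left out), and Per2 was 0.00 after cyclic loess, 0.07 with the mean of its probe sets and 0.02 with AIL arrays coded 1 to 3. For AIL against QSi5, Arntl was 0.03 with equal array medians and 0.04 with AIL arrays coded 4 and 5 (-0.39 to 0.22 with 1 array left out), Per1 -0.01 after cyclic loess, and Per2 0.12 and Per3 -0.00 with the mean of probe sets. Other turned values, for strain, the interaction and the codes, lay between -0.20 and 0.17 under these settings.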
